A study of Mus musculus with 16 samples.

Results

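Adipo_16 is the larger of the 2 clusters to which the authors of this study gave a name starting with Adipo, in single-cell RNA sequencing of mouse interscapular brown fat. Its members were taken as all cells that carry the authors' cluster label Adipo_16, and there were 662 of them among 24352 named cells and 109723 cells in all. C57BL6J mice spent 1 week at thermoneutrality (30 °C), 1 week at room temperature (22 °C), or were kept in the cold (5 °C) for either 2 days or 7 days. Each of the 4 housing groups had 4 libraries (16 in all), made from the stromal vascular fraction after the floating adipocyte layer, red blood cells and dead cells had been removed. Whether a library came from 1 mouse or several is not given in the sources used here, nor are sex and age, so the spread between libraries may hold technical as well as animal differences. The labels name no transgene or drug, and the temperature and length of housing are what set the groups apart.

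Brown adipocytes burn fat to make heat. They hold many small lipid droplets and densely packed mitochondria, whose inner membrane carries the uncoupling protein UCP1, and cold activates them through sympathetic nerves. They are large, fragile and buoyant, so a preparation that discards the floating layer keeps mainly other cells of the tissue, such as progenitors, smooth muscle, endothelial and immune cells, along with whichever adipocytes sink. Adipocytes are usually recognised by Adipoq (adiponectin), Plin1 (the lipid droplet coat protein perilipin 1) and Fabp4 (a fatty acid carrier), and brown ones also by Ucp1 and the droplet protein Cidea. The tables analysed here hold measures per cell and no values per gene, so these 5 markers could not be checked, and Adipo_16 is used below as the authors' name for a cluster. What can be described is how many such cells each library held, how many RNA molecules (unique molecular identifiers, UMIs) and genes each cell had, and how many of those UMIs were mitochondrial.

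The libraries held between 1473 and 10005 cells. Libraries stood apart in ways that bear on the values below. The 2-day cold replicate 1 had 10001 cells and no named cell, so the 2-day group has 3 libraries wherever Adipo_16 itself is counted. Its median mitochondrial share was 29.1% over all its cells. Room temperature replicate 4 held 357 named cells, fewer than any other library with named cells. Each of the 662 cells had a barcode of its own within the cluster, and 20 of these barcodes also occurred in another library.

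Adipo_16 was rare at 30 °C and most abundant after 2 days at 5 °C. The 2-day libraries held 588 of the 662 cells (88.8%), the 7-day libraries 32 (4.83%), the room temperature libraries 40 (6.04%) and the thermoneutral libraries 2 (0.302%). In the thermoneutral group, replicates 1 and 2 held 1 cell each (0.0267% and 0.187% of named cells), and replicates 3 and 4 held 0 of 1386 and 0 of 2556, which allows shares of up to 0.216% and 0.117%. At room temperature the counts were 0, 2, 3 and 35 in replicates 1 to 4. As shares of named cells these are 0, 0.0650%, 0.157% and 9.80%, and the 0 of 1681 in replicate 1 allows up to 0.178%. A single room temperature library thus held 35 of the group's 40 cells.

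After 2 days of cold, replicates 2, 3 and 4 held 282, 23 and 283 Adipo_16 cells. Their shares of named cells were 11.2% (95% Wilson interval 10.0 to 12.5), 1.50% (1.00 to 2.24) and 13.3% (12 to 14.9). All 3 lay above every thermoneutral library, and replicate 3 lay below room temperature replicate 4 (9.80%, interval 7.13 to 13.3). After 7 days the counts were 9, 5, 4 and 14, or 1.15%, 0.468%, 0.655% and 2.98% of named cells. These 4 libraries were also all above the thermoneutral ones, and 1 of them, replicate 4, exceeded the lowest 2-day library. The intervals cover counting error only.

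**Figure D1:**
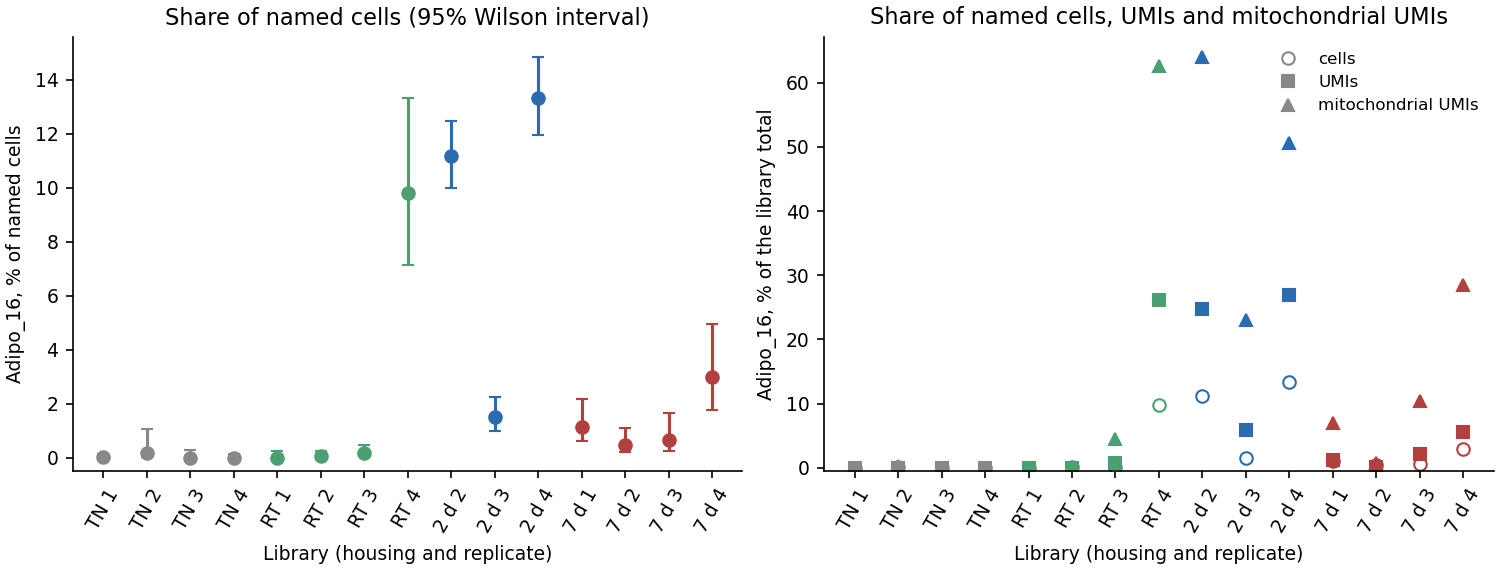
Share of Adipo_16 in each library that has named cells, as a percentage of its named cells with 95% Wilson intervals in one panel, and as a percentage of the UMIs and of the mitochondrial UMIs of its named cells in the other. The 2-day cold replicates 2 and 4 and room temperature replicate 4 stand highest, at 11.2%, 13.3% and 9.80% of cells.

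The mean share was 0.0535% ± 0.0901 (SD, n = 4) at thermoneutrality, 2.51% ± 4.87 (n = 4) at room temperature, 8.67% ± 6.31 (n = 3) after 2 days of cold and 1.31% ± 1.15 (n = 4) after 7 days. Without replicate 4 the room temperature mean was 0.0740% ± 0.0789 (n = 3). The groups were compared with limma on the log2 odds of each cluster's share, in 1 fit over the 27 named clusters that averaged at least 10 cells per library. The odds of Adipo_16 were higher by 6.98 ± 1.59 (log2 odds ratio ± SE) after 2 days of cold than at thermoneutrality (limma adjusted p = 0.0146), where 11.1% of the clusters tested were called. After 7 days they were higher than at thermoneutrality by 4.38 ± 1.47 (limma adjusted p = 0.0290), and 37.0% of clusters were called in that comparison, so a call there is common. With so few thermoneutral cells, both log2 odds ratios depend on the 0.5 cells added to every count. An exact two-sided permutation test of the percentages gave p = 0.0571 for 2 days and p = 0.0286 for 7 days, each the smallest p its group sizes allow.

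Both cold calls depended on single libraries. The 2-day difference from thermoneutrality missed the threshold without thermoneutral replicate 4 (6.50, adjusted p = 0.0551), without 2-day replicate 2 (6.53, adjusted p = 0.0664) and without 2-day replicate 4 (6.38, adjusted p = 0.0852). The 7-day difference missed it without thermoneutral replicate 3 (4.19, adjusted p = 0.0800) or 4 (3.90, adjusted p = 0.0993), and without 7-day replicate 1 (4.33, adjusted p = 0.0589) or 4 (3.87, adjusted p = 0.0595).

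The other 4 comparisons did not pass the limma threshold. Room temperature and thermoneutral housing differed by 2.32 ± 1.47 log2 odds (adjusted p = 0.580, limma), with 0.00% of clusters called. Without room temperature replicate 4 the difference was 0.52 ± 1.02 (adjusted p = 0.912), and edgeR with all libraries gave 5.98 (adjusted p = 0.195). The 2-day libraries exceeded room temperature by 4.67 ± 1.59 (adjusted p = 0.139, with 0.00% of clusters called). Without room temperature replicate 4 that difference was 6.46 ± 1.09 (adjusted p = 0.00111), and edgeR with all libraries gave 2.00 (adjusted p = 0.409). The 7-day libraries differed from room temperature by 2.06 ± 1.47 (adjusted p = 0.257, with 7.41% of clusters called), and without room temperature replicate 4 by 3.86 ± 1.02 (adjusted p = 0.0144). Between 7 and 2 days of cold the odds differed by -2.60 ± 1.59 (adjusted p = 0.549, with 0.00% of clusters called), and 2-day replicate 3 lay inside the 7-day range. Comparisons that share a housing group share its libraries.

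Where Adipo_16 cells were common, they held a larger share of the library's UMIs than of its cells, and most of all of its mitochondrial UMIs. In 2-day replicate 2, 11.2% of named cells held 24.8% of the UMIs and 64.0% of the mitochondrial UMIs. In 2-day replicate 4, 13.3% of named cells held 26.9% of the UMIs and 50.6% of the mitochondrial UMIs. The 23 cells of 2-day replicate 3 made up 1.50% of named cells, 5.86% of UMIs and 23.0% of mitochondrial UMIs. In room temperature replicate 4 the 35 cells held 26.2% of the UMIs and 62.7% of the mitochondrial UMIs, and in 7-day replicate 4 the 14 cells held 5.63% and 28.5%. Of the non-mitochondrial UMIs, Adipo_16 held 18.4%, 3.96% and 20.6% in 2-day replicates 2, 3 and 4, above its share of cells. In room temperature replicate 4 and 7-day replicate 4 it held 8.51% and 2.19% of them, below its share of cells (9.80% and 2.98%). A sum over all named cells of such a library therefore draws a large part of its mitochondrial counts from this cluster.

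Adipo_16 cells were rich in mitochondrial RNA, and in most libraries rich in RNA as a whole. Over all 662 cells, 588 of them from 2-day libraries, the median cell had 38.6% mitochondrial UMIs (quartiles 32.3% and 49.6%), 27580.5 UMIs and 3130.5 detected genes. Its log10 genes per UMI, the log of the gene number divided by the log of the UMI number and so a measure of how varied the captured RNA is, was 0.789. The 23389 named cells outside both Adipo clusters had medians of 6.24% mitochondrial UMIs, 6850 UMIs, 2353 genes and 0.878. Among the 28 named clusters, each taken over all its cells, Adipo_16 had the highest median mitochondrial share. In the 7 libraries with at least 5 Adipo_16 cells, its median mitochondrial share exceeded that of the other named cells of the same library in 7 of 7, by 29.7 to 70.7 percentage points. Its log10 genes per UMI was lower in 7 of 7. Median UMIs were higher than in the other named cells in 5 of 7 libraries, at 0.346 to 5.29 times theirs, and median genes in 3 of 7, at 0.322 to 1.60 times. Median non-mitochondrial UMIs were higher in 4 of 7, at 0.232 to 3.65 times. These contrasts describe clusters drawn from the same cells' genes and carry no test.

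A limit on mitochondrial share would remove the cluster almost whole. Of the 662 cells, 657 had at least 20% mitochondrial UMIs and 5 (0.755%) had less, while 96.2% of the other named cells lay under that limit. The limit would also remove 52.8% of Adipo_24 and 66.5% of the 1175 cells of VSM-AP_6, a named cluster described below. The cells of Adipo_16 under the limit are listed next. These 5 Adipo_16 cells had 0.196%, 5.53%, 16.4%, 19.5% and 19.8% mitochondrial UMIs. They came from both cold groups, 2 from the 7-day libraries and 3 from the 2-day libraries. At limits of 30%, 40% and 50% the Adipo_16 cells that fell below numbered 114, 361 and 504. A high mitochondrial share is a usual sign both of damaged cells and of cells with many mitochondria, and in these tables the one and the other cannot be told apart.

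The 2-day libraries with named cells resembled each other in mitochondrial share, with medians of 35.7%, 37.4% and 38.9% in replicates 2, 3 and 4 (282, 23 and 283 cells). The 7-day medians were 33.7%, 37.3%, 47.6% and 59.8% in replicates 1 to 4. Room temperature replicate 4 was far higher at 80.8%, and the 3 cells of replicate 3 had 32.8%, 62.2% and 87.8%. The 2 cells of room temperature replicate 2 had 27.5% and 28%, and the 2 thermoneutral cells had 34.6% and 43.0%.

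UMIs per cell separated the libraries more than the mitochondrial share did. The 2-day medians were 26542.5, 39019 and 27218 UMIs, and room temperature replicates 3 and 4 had 28370 and 34368. The 7-day medians were 1785, 2807, 28284 and 11652 in replicates 1 to 4. The thermoneutral cells had 2542 and 2527 UMIs, and the median in room temperature replicate 2 was 1802.5. Thus the label Adipo_16 covered deep cells in the 2-day libraries and mostly shallow ones in the thermoneutral group, room temperature replicate 2 and 7-day replicates 1 and 2. Genes per cell followed, with medians of 3287.5, 4045 and 3157 in the 2-day libraries against 706, 898, 2854.5 and 1824.5 in the 7-day libraries.

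**Figure D2:**
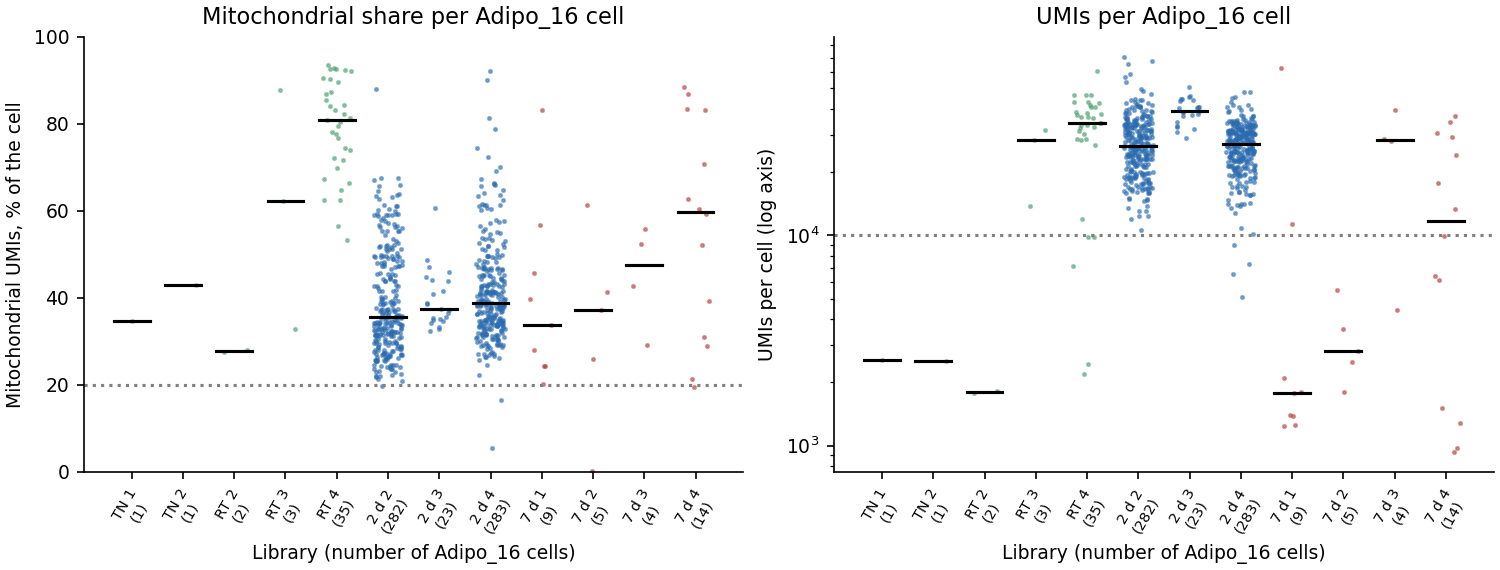
Each point is 1 Adipo_16 cell, by library. One panel shows the mitochondrial share with a dotted line at 20%, and the other the UMIs per cell on a log axis. The 2-day cells gather near 35.7% to 38.9% and 26542.5 to 39019 UMIs, the room temperature replicate 4 cells lie higher in mitochondrial share, and the 7-day replicates 1 and 2 lie lower in UMIs.

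Libraries with at least 5 Adipo_16 cells were compared between 7 and 2 days of cold, 3 against 3, which cannot give an exact permutation p below 0.1. Median UMIs were 5415 ± 5426 (SD, n = 3) after 7 days and 30927 ± 7016 (n = 3) after 2 days, a log2 difference of -2.97 (exact permutation p = 0.1, 0.167 adjusted over 5 measures, two-sided). Median genes were 1143 ± 598 and 3497 ± 479, a log2 difference of -1.73 (exact p = 0.1, adjusted 0.167). For both measures the 3 libraries of one group lay wholly apart from those of the other. Including 7-day replicate 3 with its 4 cells, at 28284 UMIs, the UMI difference was -2.26 and the groups overlapped. Mitochondrial share was 43.6% ± 14.1 after 7 days and 37.3% ± 1.62 after 2 days (difference 6.26 points, exact p = 0.9), and it was lower by 1.84 points without 7-day replicate 4. Log10 genes per UMI was 0.842 ± 0.0518 and 0.788 ± 0.00369 (exact p = 0.4, adjusted 0.5).

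The shallow cells form a small and uneven minority. Under a limit of 10000 UMIs, chosen after the values had been seen, lay 33 of the 662 cells (4.98%). They were 4 of the 588 cells from 2-day libraries, 20 of the 32 from 7-day libraries, 7 of the 40 from room temperature and both thermoneutral cells. Their medians were 2508 UMIs, 744 genes, 37.3% mitochondrial UMIs and a log10 genes per UMI of 0.856. The 629 deeper cells had medians of 28143 UMIs, 3188 genes, 38.6% and 0.788. These pooled medians of the mitochondrial share are close, but within the 7-day libraries that held both kinds the shallow cells were lower. The medians of shallow and deep cells were 28% and 61.5% in replicate 1 (7 and 2 cells), 29.2% and 52.4% in replicate 3 (1 and 3 cells), and 31.0% and 62.6% in replicate 4 (7 and 7 cells). In room temperature replicate 4 the shallow cells were also lower, at 76.7% and 81.1% (5 and 30 cells). In 2-day replicate 4 they were higher, at 47.0% and 38.9% (4 and 279 cells).

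Counting only the deep cells, the thermoneutral libraries held none. The share of named cells was then 2.14% ± 4.18 (SD, n = 4) at room temperature, 8.61% ± 6.24 (n = 3) after 2 days and 0.559% ± 0.652 (n = 4) after 7 days, from 12 cells. With 0 cells in all 4 thermoneutral libraries, a fitted log2 odds ratio against them depends on the 0.5 cells added and is no bound. In that fit the 7-day difference from thermoneutrality was 3.50 ± 1.65 (limma adjusted p = 0.0913) and no longer passed the threshold.

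Apart from the shallow cells, which had a median of 936 mitochondrial UMIs, Adipo_16 cells differed less in mitochondrial UMIs than in all the others. Over the 662 cells, the quartiles of mitochondrial UMIs were 8980 and 11856 around a median of 10313.5, whereas those of the other UMIs were 9920 and 21364 around 15958. Binned by mitochondrial share, the 109 cells at 20 to 30% had medians of 9031 mitochondrial UMIs, 24657 other UMIs and 4061 genes. The 47 cells at 60 to 70% had 11350 mitochondrial UMIs, 6587 other UMIs and 1666 genes. A cell high in mitochondrial share therefore had fewer other UMIs rather than many more mitochondrial ones. Across the cells of 2-day replicate 2, the mitochondrial share ranked with the other UMIs at a Spearman rho of -0.930 (282 cells) and with the mitochondrial UMIs at 0.132. In 2-day replicate 3 the values were -0.886 and 0.263 (23 cells), in replicate 4 -0.844 and 0.333 (283 cells), and in room temperature replicate 4 -0.639 and 0.131 (35 cells). Mitochondrial and other UMIs themselves ranked together at 0.189, 0.125 and 0.125 in 2-day replicates 2, 3 and 4, and more closely, at 0.451, in room temperature replicate 4. These correlations are descriptions across cells of 1 library, and the share is computed from the same UMIs, so part of each is arithmetic.

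**Figure D3:**
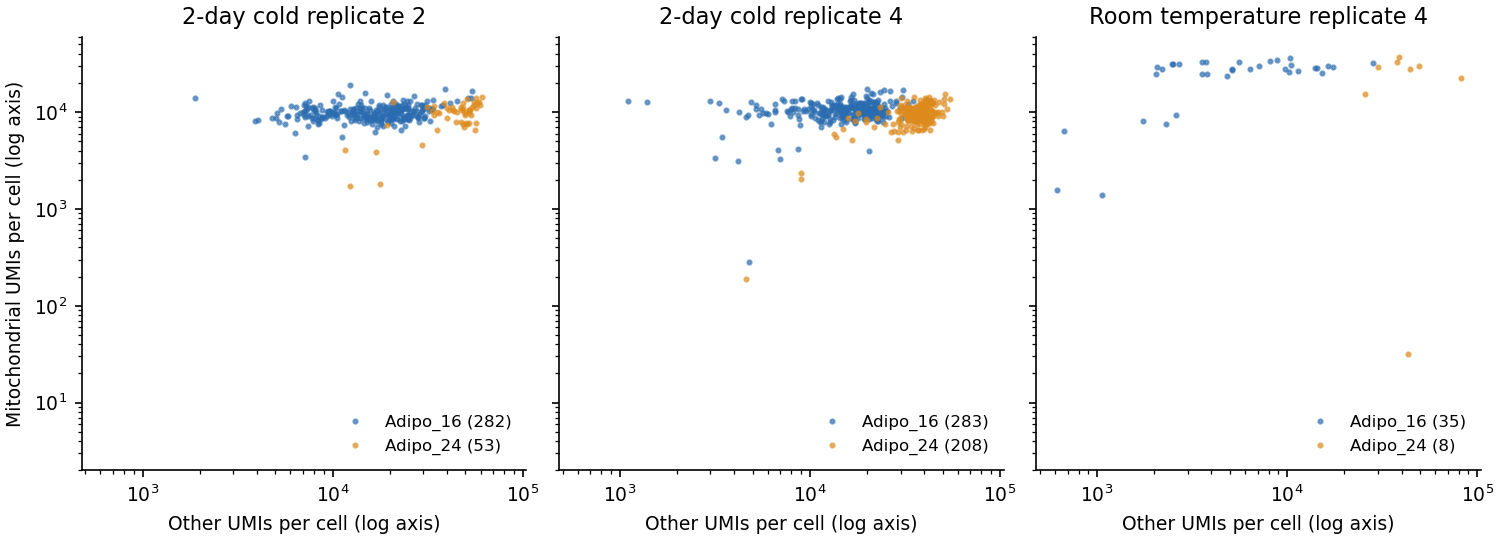
Mitochondrial UMIs against all other UMIs per cell, both on log axes, for Adipo_16 and Adipo_24 cells of the 3 libraries with at least 8 cells of each. The points of both clusters form a nearly flat band near 10000 mitochondrial UMIs in the 2-day libraries, with Adipo_16 at its left and Adipo_24 at its right. In room temperature replicate 4 most points lie higher, and the Adipo_16 cells lowest in other UMIs are also among the lowest in mitochondrial UMIs.

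**Figure D4:**
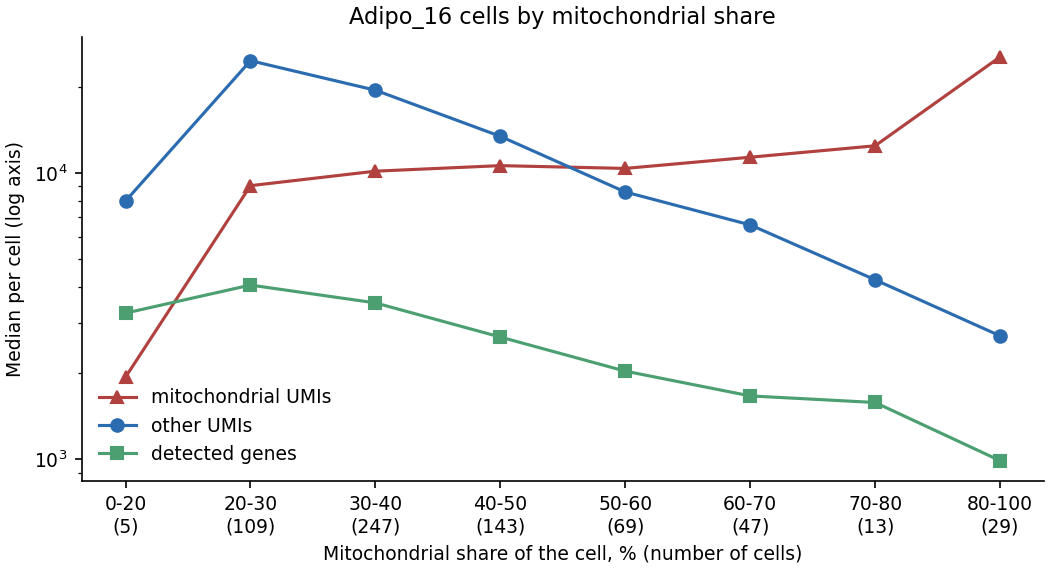
Median mitochondrial UMIs, other UMIs and genes of Adipo_16 cells in bins of mitochondrial share, with the number of cells in each bin. Other UMIs and genes fall from the 20 to 30% bin (24657 and 4061) to the 60 to 70% bin (6587 and 1666), while mitochondrial UMIs stay between 9031 and 11350.

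The bin at 80% and above departed from this band. Its 29 cells had a median of 25417 mitochondrial UMIs and 2700 other UMIs, and 19 of them came from room temperature replicate 4. In that library the median Adipo_16 cell had 28043 mitochondrial and 5137 other UMIs, against 9836.5 and 17046.5 in 2-day replicate 2 and 10471 and 16471 in 2-day replicate 4. The 8 Adipo_24 cells of room temperature replicate 4 also had many mitochondrial UMIs, with a median of 28559. Adipo_24 medians in the 2-day libraries were 9625 to 14688. Some Adipo_24 cells elsewhere were also high, so the level was not particular to this library. They had 20867 and 34804 in room temperature replicate 1, and 35966 in 7-day replicate 4. In 7-day replicate 2 they had 29752, 28271 and 733. Against the cold libraries with at least 5 Adipo_16 cells, the other named cells of room temperature replicate 4 were higher too. Those had a median of 810.5 mitochondrial UMIs, against 210 to 471 in these cold libraries, a comparison that holds no other room temperature library. Their median mitochondrial share was 10.1%, against 3.26% to 8.72% in the other libraries with named cells.

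Adipo_24, the other Adipo cluster, has 301 cells and differed from Adipo_16 chiefly in its other UMIs. Its median cell had 48040 UMIs, 4758 genes and 20.4% mitochondrial UMIs, and 47.2% of its cells were below 20%. Both clusters had low log10 genes per UMI, under 0.8 in 84.7% of Adipo_16 and 91.4% of Adipo_24 cells. In the 4 libraries with at least 5 cells of each, the mitochondrial UMIs of the median Adipo_16 cell were 0.961 to 1.09 times those of Adipo_24. Its other UMIs were 0.125 to 0.786 times and its genes 0.275 to 0.801 times those of Adipo_24, lower in 4 of 4 libraries. The mitochondrial share was higher in 4 of 4, by 11.4 to 42.5 points.

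VSM-AP_6, with 1175 cells, stood next to the Adipo clusters in mitochondrial share at a median of 25.2%, but with 2928 UMIs and 1067 genes per cell. In the 2-day libraries, where Adipo_16 cells were most numerous, they had 5.90, 10.8 and 8.17 times the UMIs of VSM-AP_6 cells in replicates 2, 3 and 4. The ratio was 5.35 in room temperature replicate 4 and 4.01 in 7-day replicate 4. In 7-day replicates 1 and 2 the order was turned, at 0.449 and 0.516 times. The median mitochondrial share of Adipo_16 was above that of VSM-AP_6 in 6 of 7 libraries, by 1.50 to 59.3 points. In 7-day replicate 1 it was below, at 33.7% against 51.0%.

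At equal numbers of non-mitochondrial UMIs, Adipo_16 cells had fewer detected genes than the other named cells. Between 5000 and 10000 such UMIs the medians were 1919 genes in 107 Adipo_16 cells and 2504 in 8445 others, a ratio of 0.766. Between 20000 and 30000 they were 3930.5 and 4849, a ratio of 0.811. In the library windows with at least 5 cells of each kind, the ratio ran from 0.657 to 0.931 and was never above 1. Adipo_24 cells had 4054 genes in the 20000 to 30000 window, close to Adipo_16. The non-mitochondrial UMIs of Adipo_16 cells were thus spread over fewer genes, and which genes these were was not analysed here.

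Pooled over libraries, and so mostly in cells of the 2-day libraries, few Adipo_16 cells had an S or G2M phase call. In the table of named cells 82 of 662 (12.4%) had an S or G2M call, 63 in S and 19 in G2M, against 59.7% of the other named cells and 1.66% of Adipo_24. In the table of all cells the same 662 cells had 39 such calls (5.89%), against 15.0% and 0.332%. The calls of both tables matched for 92.6% of Adipo_16 cells and for 55.0% of the other named cells, so the share depends on the table. Of the 33 shallow cells 18 had an S or G2M call, and of the 629 deep cells 64. In 7-day replicates 1, 2 and 4 the share with such a call was 44.4%, 80% and 21.4%. Among the other named cells of these libraries it was 48.4%, 47.5% and 57.4%. The share was 6.96% ± 7.26 (SD, n = 3) in the 2-day and 48.6% ± 29.5 (n = 3) in the 7-day libraries (exact permutation p = 0.1, adjusted 0.167), and the latter rests on 9, 5 and 14 cells. Phase calls read few genes in shallow cells, and the part of depth in this difference was not tested.

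The authors deposited cluster numbers at several resolutions of the graph clustering, for all cells and for the named cells. In the clustering of all 109723 cells the 662 cells were divided at every resolution. At 1.2, for example, 515 of them lay in a cluster of 4043 cells and 111 in one of 1851. The rest of this paragraph is about the clustering of the named cells. There they formed a cluster of their own at resolutions 0.8 and 1.2. The latter is that of the names, so being whole at 1.2 follows from the name. At resolutions 0.6 and 1 they stayed whole in a cluster of 725 that also took 63 Adipo_24 cells, and at 0.1 they shared a cluster of 1893 with all 301 Adipo_24 cells. They were divided at 0.4, where 469 joined all 301 Adipo_24 cells and 193 fell in another cluster, and at 1.4, into 463 and 199. At 1.8 they split into 469 cells alone (cluster 21) and 193 cells that joined 251 others (cluster 22), all of them VSM-AP_6. The 469 had medians of 35% mitochondrial UMIs, 30584 UMIs and 3498 genes. The 193 had 53.6%, 18074 and 1919. The split therefore ran along the band described above, with the cells poorer in other UMIs grouped with VSM-AP_6, and 30 of the 33 shallow cells were among the 193. In 2-day replicates 2 and 4 the smaller set took 31.2% and 24.4% of the Adipo_16 cells.

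The clustering of all 109723 cells at resolution 1.8 gives a value to the 2-day replicate 1 library, which has no named cells. Of the 662 cells, 381 (57.6%) fell in cluster 11 of that clustering and 213 (32.2%) in cluster 20. Cluster 11 held 2961 cells, of which 2559 (86.4%) were unnamed cells of 2-day replicate 1, and the rest were the 381 Adipo_16 cells, 19 of Adipo_24 and 2 cells with other names. In 2-day replicate 1 cluster 11 took 25.6% of all cells (interval 24.7 to 26.5), against 1.75%, 0.195% and 1.83% in replicates 2, 3 and 4. Those 2559 cells had medians of 35.4% mitochondrial UMIs, 20414 UMIs, 2981 genes and 0.805 log10 genes per UMI. In the cluster 11 cells of the other 2-day libraries the mitochondrial medians were 31.6%, 37.2% and 35.1%, and the UMI medians 31486.5, 40429 and 30426. The unnamed cells were thus alike in mitochondrial share and lower in UMIs, and they carry no Adipo name.

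**Figure D5:**
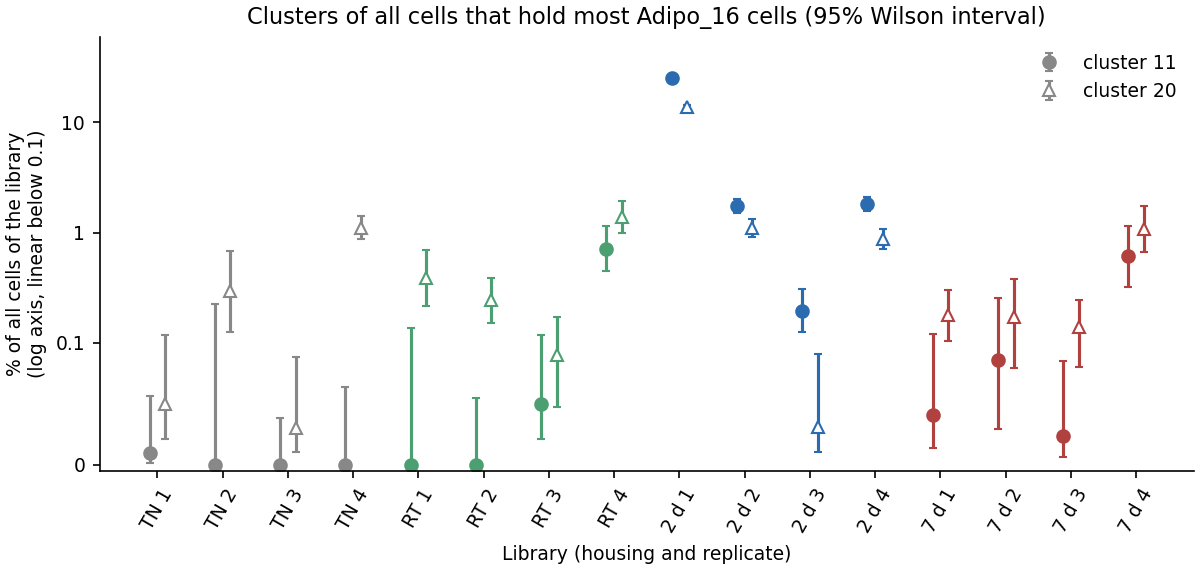
Percentage of all cells of each of the 16 libraries in clusters 11 and 20, with 95% Wilson intervals, on an axis that is logarithmic above 0.1% and linear below. In 2-day replicate 1 the clusters reach 25.6% and 13.7%, above every other library.

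Cluster 11 averaged 0.00250% ± 0.00500 of all cells (SD, n = 4) at thermoneutrality, 0.191% ± 0.349 at room temperature, 7.34% ± 12.2 after 2 days and 0.190% ± 0.282 after 7 days. Without replicate 1 the 2-day mean was 1.26% ± 0.921 (n = 3). In a limma fit over 55 clusters it was higher after 2 days of cold than at thermoneutrality by 7.56 ± 1.50 log2 odds (limma adjusted p = 0.00220, with 9.09% of clusters called). Leaving out any 1 library kept this difference between 6.23 and 8.71 and its adjusted p at or under 0.0117. It also exceeded room temperature, by 5.52 ± 1.50 (limma adjusted p = 0.0370, with 5.45% of clusters called). That call was lost without any one of 9 libraries, among them 2-day replicate 1 (4.20), and its adjusted p then reached up to 0.178. After 7 days cluster 11 differed from thermoneutrality by 3.07 ± 1.50 (limma adjusted p = 0.232, with 0.00% of clusters called) and from 2 days by -4.49 ± 1.50 (adjusted p = 0.119, with 1.82% of clusters called). Without 2-day replicate 3 the last difference was -5.64 (adjusted p = 0.0203).

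Cluster 20 was more mixed than cluster 11. It held 1762 cells, of which 1412 were unnamed, 213 Adipo_16, 135 VSM-AP_6 and 2 of another name. It took 13.7% of 2-day replicate 1, and 1.10%, 0.0308% and 0.880% of the other 2-day libraries. Clusters 11 and 20 together were 39.3% of the cells of 2-day replicate 1 (3933 cells). Outside cluster 11 the median mitochondrial share of that library was 6.79%.

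Libraries with many Adipo_16 cells also had many Adipo_24 cells. Over the 15 libraries with named cells, the log2 odds of both clusters correlated with Pearson's r = 0.865 (permutation p = 5.0e-05, adjusted 0.00015 over 3 relations) and Spearman's rho = 0.871 (permutation p = 8.0e-05, adjusted 0.00024). For all 3 relations the libraries were permuted across the housing groups. A difference between housing groups that both clusters share is therefore not separated from variation between libraries, and the subsets of replicates below also mix the groups. A library without a cell of either cluster gets nearly the same low value for both, which adds to this r. The value was 0.786 within replicates 1 and 2 (n = 7, permutation p = 0.0417) and 0.902 within replicates 3 and 4 (n = 8, permutation p = 0.00347). Over cells under 20% mitochondrial UMIs alone, it was 0.593 (permutation p = 0.0204). That leaves 5 Adipo_16 cells in 4 libraries. The odds in most libraries then come from a count of 0 and the library's cell number, so this r cannot show how the clusters move together. Without 2-day replicate 4 and room temperature replicate 2, the libraries farthest from the median, r over the remaining libraries was 0.856 (permutation p = 0.00023). The median mitochondrial share of the other named cells had r = -0.274 (adjusted p = 0.439) and rho = -0.414 (adjusted p = 0.188) with the Adipo_16 odds. Within replicates 1 and 2 it had r = -0.892 (n = 7, permutation p = 0.00678), within replicates 3 and 4 -0.285, and without its 2 farthest libraries, room temperature replicate 4 and thermoneutral replicate 4, -0.566 (permutation p = 0.0448). The log2 median UMIs of the other named cells had r = -0.216 (adjusted p = 0.439) and rho = -0.168 (adjusted p = 0.550). All 4 values of r with the mitochondrial share of the other cells were negative.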

How the data were processed

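The authors deposited 2 tables with 1 row per cell, for all 109723 cells of 16 libraries and for 24352 named cells of 15. Per the submitters' processing notes STAR and Cell Ranger 3.0.1 were used with mm10, on Chromium Single Cell 3' v3 libraries. Per the file headers, the deposited columns hold UMI and gene counts, the mitochondrial fraction, the ratio log10 genes per UMI, cell-cycle scores and cluster numbers of integrated data. The sources used here do not give the filters on cells or the handling of doublets. No doublet caller was run and cells were not thinned to equal depth, since both need values per gene.

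Mitochondrial UMIs were the fraction times the UMI count. Cells were counted per library, and limma 3.58.1 (R 4.3.3) was fitted to log2 odds with 0.5 cells added, over clusters that averaged 10 or more cells per library, with 4 groups in 1 fit and Benjamini-Hochberg adjustment at 0.05. edgeR 4.0.16 on the cell counts was the alternative. Single values were compared by exact permutation, and correlations with 100000 resamples. The floor for a count of 0 was 3 cells. In limma, 0 of 27 named clusters passed for room temperature against thermoneutral, 2 days against room temperature and 7 against 2 days, where 1, 3 and 2 had an unadjusted p under 0.05 and edgeR called 0 in each. In the fit over 55 clusters limma called 0 for room temperature against thermoneutral, 7 days against thermoneutral and 7 days against room temperature, where 1, 8 and 10 had an unadjusted p under 0.05 and edgeR called 0. The fits were tested on simulated data.

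The clusters described are Adipo_16, the 2 named clusters nearest to it in median mitochondrial share (VSM-AP_6 and Adipo_24), and the 2 clusters of all cells that hold most Adipo_16 cells. The cluster, the measures and the tests were chosen with earlier results of these data known. Replicate numbers were checked and the libraries were not treated as pairs, since deviations of same-numbered libraries correlated between -0.30 and 0.65. Libraries with different numbers correlated between -0.28 and 0.62 within replicates 1 and 2 or within replicates 3 and 4. Between these sets they correlated between -0.68 and 0.33. What each set shares is not given. With the sets as a covariate, the 2-day difference from thermoneutrality was 6.85 (limma adjusted p = 0.0256). The 7-day difference was 4.38 (limma adjusted p = 0.0238).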

Additional observations from a re-analysis of the deposited data

Results flagged for a closer look

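Of 17 groups of 4 libraries in which 1 library could be set against the others, 10 had a library farther out than a gap test (Dixon's, at 95%) allows. The test is set to flag about 1 in 20 groups of normally distributed values. These percentages hold values of 0 and single cells, so that rate need not apply to them. The groups are also not independent, since the same libraries recur in several. Room temperature replicate 4 stood above its group in Adipo_16 cells (9.80% of named cells), in their share of UMIs (26.2%) and of mitochondrial UMIs (62.7%), and in cluster 11 (0.713% of all cells). Without it, the room temperature means were 0.0740%, 0.231%, 1.51% and 0.0167%. The 2-day cold replicate 1 stood above its group in cluster 11 (25.6% of all cells) and cluster 20 (13.7%). Without it the 2-day means were 1.26% and 0.671%. The 7-day replicate 4 stood above its group in cluster 11 (0.611%) and cluster 20 (1.09%). In the thermoneutral group, replicate 2 stood out with 0.187% of named cells and replicate 1 with 0.0100% of all cells in cluster 11, each of which is 1 cell. What sets these libraries apart was not tested.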

How the results depend on the processing

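The cold differences from thermoneutrality kept their sign under all settings tried. The 2-day call ended when 1 of 3 libraries was left out (6.38, 6.50 or 6.53, of a range of 6.38 to 8.04 over 15 libraries). The exact permutation test (8.62 percentage points) could not pass 0.05 for 2 days, since the smallest p its group sizes allow is 0.0571. The 7-day call ended on an arcsine scale (0.0927), with all cells as the denominator (3.56), without cells under 10000 UMIs (3.50), and when 1 of 4 libraries was left out (3.87, 3.90, 4.19 or 4.33, of a range of 3.87 to 5.18 over 15 libraries). For 2 days against room temperature, leaving out 1 library gave 3.62 to 6.46, replicates 1 and 2 alone gave 8.0, and replicates 3 and 4 alone 1.78. For 7 days against room temperature the range was 1.01 to 3.86, and the sign turned with edgeR (-0.77, with TMM -0.57) and with the percentages (-1.19 points). Room temperature against thermoneutral was -1.11 using replicates 1 and 2 alone and 5.74 using replicates 3 and 4 alone.

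For cluster 11, room temperature against thermoneutral was -0.90 and 4.96 in those subsets of replicates. Its 2-day difference from thermoneutrality missed the threshold on the arcsine scale (0.208). Its 2-day difference from room temperature missed it with edgeR without TMM (5.40, adjusted p = 0.0610), though not with TMM (6.05, adjusted p = 0.0442), and on the arcsine scale (0.184), ranged from 4.20 to 6.84 when 1 library was left out, and was 9.45 and 1.60 in those subsets. For 7 days against room temperature, edgeR gave -0.13 without TMM and 0.0063 with it, and replicates 3 and 4 alone -0.55. For 7 against 2 days the range was -5.64 to -3.16, with -6.82 and -2.15 in those subsets. Among the cell measures of 7 against 2 days, the mitochondrial difference ranged from -1.84 to 11.2 when 1 library was left out, and log10 genes per UMI was -0.0054 with at least 10 cells per library, where 1 library remained in the 7-day group. The correlation with the mitochondrial share of other cells was -0.892 within replicates 1 and 2 and -0.566 without its farthest libraries, and that with their UMIs was 0.0965 within replicates 3 and 4. The cause of these changes was not tested. Arcsine, centred log-ratio and the UMI limit were chosen after seeing the data.

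With the replicate number as a block, the 2-day difference from thermoneutrality was 6.60 ± 1.53 (limma adjusted p = 0.0302) and the 7-day difference 4.38 ± 1.39 (adjusted p = 0.0259), and no call changed. The paired differences of 7 against 2 days over replicates 2 and 4 were 11.3 points of mitochondrial share, -2.23 and -1.33 in log2 UMIs and genes, 0.036 in log10 genes per UMI and 40.3 points of S or G2M calls. A fit on cells under 20% mitochondrial UMIs gave no value for Adipo_16 or cluster 11, because too few cells were left. The correlation with Adipo_24 was then 0.593, with a count of 0 for Adipo_16 in most libraries. Depth limits the thermoneutral and 7-day groups, whose medians rest on 1 to 14 cells per library.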
